A study of Mus musculus with 16 samples.

Results

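Respiratory chain and ATP synthase genes were followed across 4 groups of sorted mouse cardiomyocytes (CMs). The set was chosen by gene name and took every gene whose name on the microarray begins with Nduf, Uqcr or Atp5, is Sdha, Sdhb, Sdhc or Sdhd, or begins with Cox followed by a subunit number from 4 to 8. This gave 93 genes with 136 probes, of 34821 gene names and 55681 probes on the microarray. Of these genes, 81 encode subunits of the complexes and the others are assembly factors, paralogs or genes that the name pattern takes in, among them the pseudogene Atp5c1-ps.

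Cells were flow sorted from wild-type CD1 mice by their surface level of integrin α6 (ITGA6). At embryonic day (E) 15.5 the cells carried the CM surface marker ERBB-2, and EL denotes those with low ITGA6, EH those with high ITGA6. On postnatal day (P) 2 no ERBB-2 gate was used and magnetic beads had removed non-myocytes, and PL and PH denote the cells with low and with high ITGA6. Each group had 4 samples, each a pool of 20 to 30 embryonic or 15 neonatal hearts with at least 50000 sorted cells, hybridized to a single-color microarray of its own, so that 16 microarrays were compared. Samples are numbered 2, 3, 6 and 8 at E15.5 and 2, 3, 4 and 5 at P2. Values are normalized signal intensities, with means ± SD over 4 samples, and a fold-change is the difference of group means on the log2 scale from limma, given with its SE. A gene was called when its Benjamini-Hochberg adjusted p over all probes was at most 0.05.

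The respiratory chain is a series of protein complexes in the inner mitochondrial membrane that passes electrons from NADH (complex I) and succinate (complex II) through complex III to oxygen at cytochrome c oxidase (complex IV). The proton gradient that builds up drives the ATP synthase. Most subunits are encoded in the nucleus and a few of the central ones in mitochondrial DNA. Heart muscle draws most of its ATP from this system, and several subunits of complex IV exist as a muscle isoform beside a more widely expressed one.

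Of the 93 genes, 89 were well above background on all 16 microarrays. Cox8c was well above background on 0 microarrays and Cox7b2, which like Cox8c is known from testis, on 1 microarray of EH. Ndufa4l2 passed this mark on 4 of 4 microarrays in EL and EH but on 0 of 4 in PL and PH. Cox4i2 missed the mark on 1 microarray of PL. Across microarrays, 35.7 to 46.5% of all probes were well above background, and no spot outside the controls was saturated.

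The fractions differed in their chamber markers. Myl7, Nppa, Sln, Nr2f2, Gja5 and Tbx5, a list of 6 atrial genes, were all called higher in EH than in EL and in PH than in PL. Their summed signal was 20679 to 26185 in EL, 424507 to 445461 in EH, 12566 to 52171 in PL and 635463 to 737827 in PH. All 5 ventricular markers (Myl2, Myh7, Irx4, Hey2 and Lbh) were called lower, with sums of 460349 to 481273, 141017 to 225682, 328989 to 366580 and 22876 to 35106 in the same order. All 7 cardiomyocyte markers were well above background in every group, with sums of 477826 to 520892 in EL, 675870 to 721493 in EH, 771348 to 810457 in PL and 705917 to 793961 in PH, and between fractions 1 was called higher and 1 lower in EH and 0 and 1 in PH. The most abundant, the sarcomeric actin gene Actc1, had a mean of 289567 for EL, 291480 for EH, 288691 for PL and 267640 for PH. In bulk samples such as these, fewer cells of a type and less RNA per cell cannot be told apart.

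Between the stages, most of the respiratory chain genes were called higher at P2. Of 93 genes, 79 were called higher and 4 lower in PL than in EL, against 9.7% of all probes called higher and 10% called lower. In PH against EH, 76 were called higher and 3 lower, against 9.12% and 8.37% of all probes. The median log2 fold-change of the genes was 0.68 in the ITGA6-low and 0.54 in the ITGA6-high cells, where the 17202 probes with a signal well above background on every microarray had a median of 0.02 and 0.04. Among these probes the shares called were 23.4% higher and 23% lower in PL against EL, and 21.5% and 18.5% in PH against EH. With each microarray scaled to its 75th percentile instead of being quantile normalized, 58 genes were called higher in PL and 29 in PH. Under this scaling the median of all probes was 0.19 in both comparisons, and the share of all probes called was not computed. The comparisons use different microarrays but share slides, and same-numbered EL and EH samples varied together, so that they are not independent. In all, 73 genes were called higher in both, which is 92.4% of the genes higher in PL and 96.1% of those higher in PH. The share of all probes called higher in both was not computed.

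All complexes took part in the rise. In PL against EL, 40 of 44 complex I genes, 4 of 4 complex II genes, 8 of 8 complex III genes, 12 of 17 complex IV genes and 13 of 15 ATP synthase genes were called higher. In PH against EH these counts were 38, 4, 8, 10 and 13. Within complex I, all 7 core subunits encoded in the nucleus rose in PL, as did 3 of 7 assembly factors. All 30 genes counted as accessory subunits also rose, among them Ndufa4, which is placed in complex I by its name alone. The median for each microarray, relative to the mean of EL, lay between 0.57 and 0.75 in PL and between 0.26 and 0.39 in PH, above all 8 microarrays of E15.5. The plot of fold-changes by complex shows the rise in its stage comparisons.

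**Figure D1:**
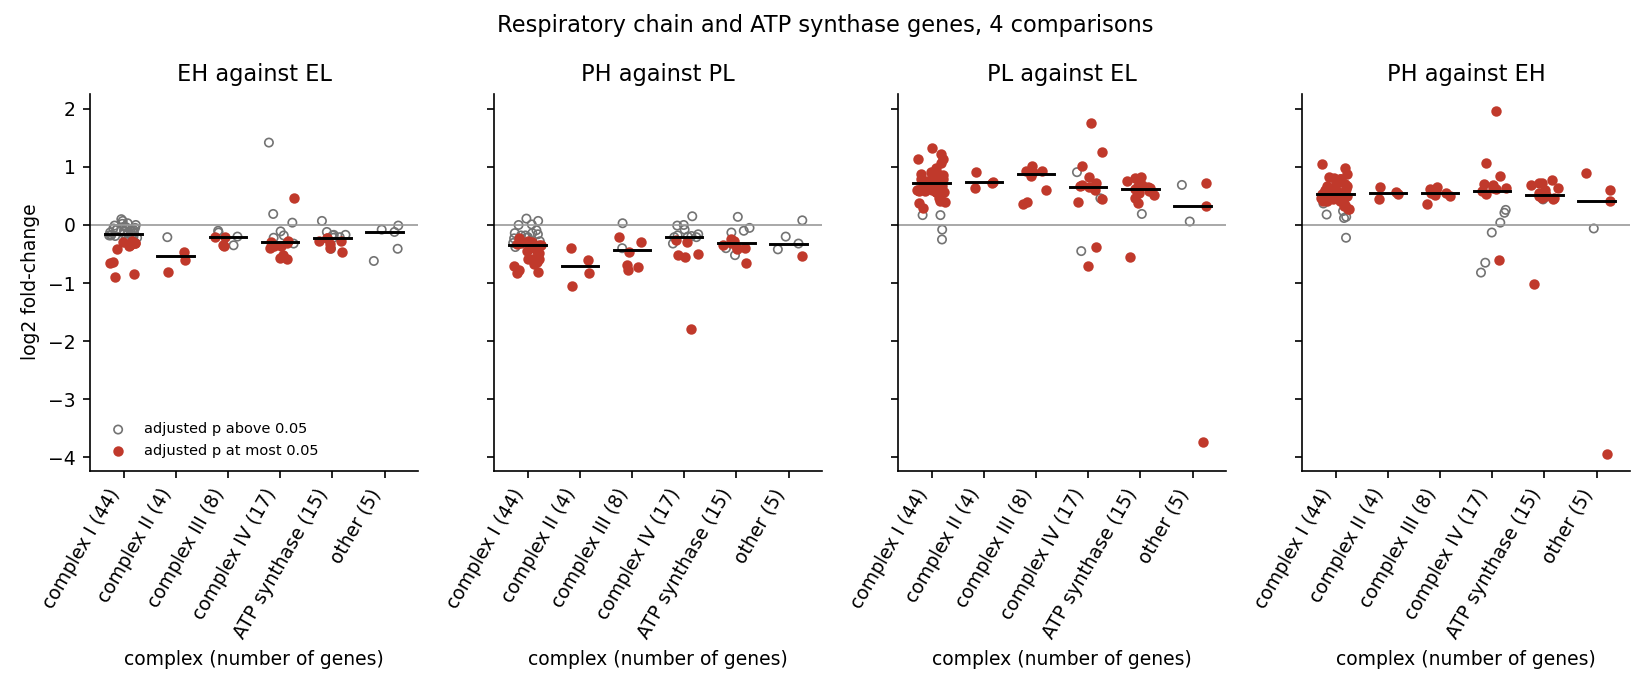
Log2 fold-change (vertical axis) of the 93 genes in the 4 comparisons, grouped by complex, with 1 point per gene, filled where the adjusted p was at most 0.05, and a line at the median of each complex. In PL against EL and PH against EH most points lie above 0, in EH against EL and PH against PL most lie below, and the isolated low points at -3.74 and -3.94 are Ndufa4l2, which was not well above background at P2.

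The largest rises outside complex IV were in complex I. Ndufa10, an accessory subunit, had signals of 3842, 3760, 4179 and 4890 in EL and of 11175, 12719, 8711 and 9294 in PL. Its log2 fold-change was 1.32 ± 0.136 (adjusted p = 8.59e-06), and every PL sample was above every EL sample. The ITGA6-high samples had 4100, 4089, 3418 and 4679 at E15.5 and 6467, 7156, 7947 and 6282 at P2 (0.78 ± 0.136, adjusted p = 0.000956). Ndufa9, also an accessory subunit, rose by 1.23 in PL and 0.70 in PH. Ndufb10 and Ndufa1, both subunits of the membrane arm, rose by 1.14 each in PL and by 0.88 and 1.05 in PH. Ndufv1, the core subunit that binds NADH, rose by 1.07 and 0.99.

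In complex III, Uqcrc1, a core protein, had signals of 8884 to 9918 in EL and 17684 to 20214 in PL (log2 fold-change 1.01 ± 0.0744, adjusted p = 4.15e-07). The Rieske iron-sulfur protein gene Uqcrfs1 rose by 0.93 in PL and 0.55 in PH. All complex II genes rose by 0.63 to 0.91 in PL and by 0.44 to 0.66 in PH, with Sdha, the flavoprotein that oxidizes succinate, at the upper end in both. Cox5a and Ndufb7 were among the larger rises in PH, by 0.85 and 0.83. Atp5g1 and Atp5g3, which with Atp5g2 encode the same mature ring subunit of the ATP synthase, rose by 0.67 (by the brighter of its probes) and 0.76 in PL. Atp5g2 had a log2 fold-change of 0.19 in PL (adjusted p = 0.0561) and rose by 0.50 in PH, and its other bright probe was called in both (0.27, adjusted p = 0.00848, and 0.51).

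The 3 muscle isoforms of complex IV, Cox6a2, Cox7a1 and Cox8b, were all called higher at P2 in both fractions. With 75th percentile scaling the call of Cox6a2 was lost in PH against EH (0.37, adjusted p = 0.154). Cox8b had signals of 20010, 17293, 20523 and 19968 in EL and of 57232, 61073, 73042 and 70398 in PL. In the ITGA6-high cells the signals were 13107, 13678, 12774 and 14624 in EH and 50151, 53051, 53400 and 56212 in PH. The groups did not overlap between stages. Cox8b showed the largest rise of all 93 genes in both fractions, by 1.75 ± 0.0858 in PL (3.36-fold, adjusted p = 1.44e-08) and 1.97 ± 0.0858 in PH (3.93-fold, adjusted p = 7.3e-09).

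Cox7a1 had signals of 36279, 37755, 39820 and 38271 in EL, against 66760, 73239, 86482 and 83467 in PL. The values were 31812, 33162, 32408 and 32939 in EH, against 64351, 62315, 71107 and 74816 in PH. It about doubled in both, with log2 fold-changes of 1.02 ± 0.0834 (adjusted p = 1.09e-06) and 1.06 ± 0.0834 (adjusted p = 1.05e-06). The difference between these stage effects was 0.04 (adjusted p = 0.926).

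Cox6a2 behaved differently in the 2 fractions. At E15.5 its signals were 57659, 46078, 55845 and 49678 in EL, against 81001, 65908, 74263 and 66281 in EH. At P2 they were 110361, 123710, 130281 and 131936 in PL, against 101540, 113404, 120273 and 107901 in PH. All EH samples were above all EL samples, whereas PL and PH overlapped. The rise was 1.25 ± 0.0954 in PL (adjusted p = 5.79e-07) and 0.63 ± 0.0954 in PH (adjusted p = 0.000315), and the interaction, which is the difference between both, was -0.62 ± 0.135 (adjusted p = 0.0216). Cox6a2 was the only gene of the set called higher in EH than in EL (log2 fold-change 0.46, adjusted p = 0.00739). After scaling to the 75th percentile this fold-change was 0.13 (adjusted p = 0.67), and Cox6a2 was called lower in PH than in PL (-0.69, adjusted p = 0.0122). The interaction was then -0.81 and not called (adjusted p = 0.0966). It was also not called with the E15.5 samples of slide 1 alone (-0.57, adjusted p = 0.133).

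**Figure D2:**
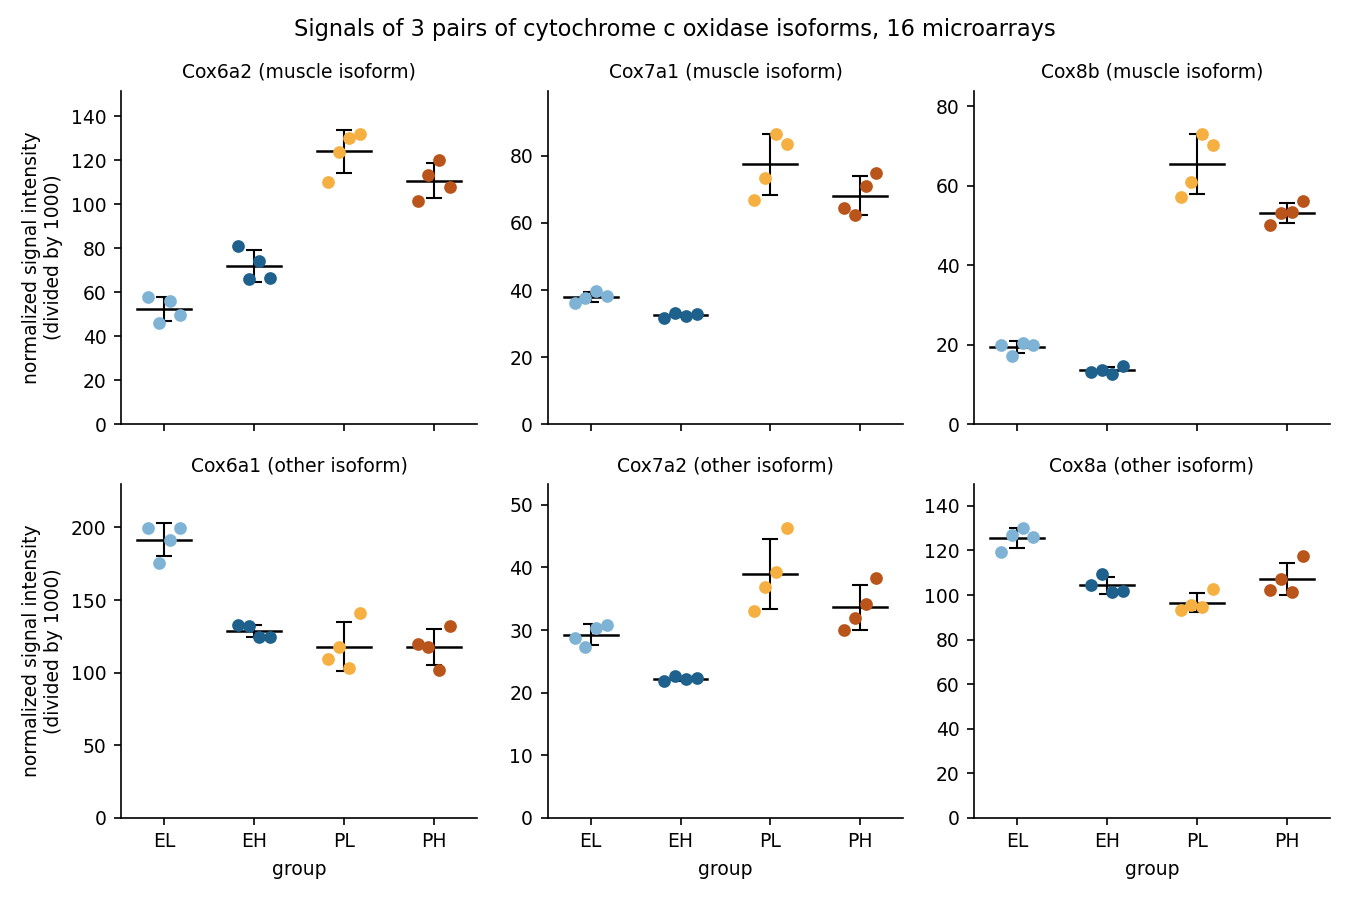
Normalized signal intensity divided by 1000 (vertical axis, from 0) of the muscle isoforms Cox6a2, Cox7a1 and Cox8b (top) and of Cox6a1, Cox7a2 and Cox8a (bottom) in EL, EH, PL and PH, with 1 point per microarray, a bar at the mean of 4 and whiskers of 1 SD. All P2 points of the muscle isoforms lie above all E15.5 points, while Cox6a1 and Cox8a were highest in EL.

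The more widely expressed isoforms went in both directions. Cox6a1 had signals of 199892, 175814, 191087 and 199892 in EL and of 109595, 117470, 103508 and 141291 in PL, and fell by 0.71 on the log2 scale (adjusted p = 0.000111). The ITGA6-high cells had 128569 ± 4339 at E15.5 and 117729 ± 12285 at P2 (log2 fold-change -0.13, adjusted p = 0.452). Cox8a fell from 125723 ± 4521 in EL to 96632 ± 4262 in PL (log2 fold-change -0.38, adjusted p = 0.00033) and differed by 0.04 between PH and EH (adjusted p = 0.777), where its other bright probe was called higher (0.21, adjusted p = 0.0446). Cox7a2 was called higher at P2 in both fractions, by 0.40 and 0.59, but with 75th percentile scaling both calls were lost (0.18 and 0.38, adjusted p = 0.59 and 0.192), as was that of Cox8a in PL (-0.44, adjusted p = 0.086). Cox4i1, the common isoform of its subunit, rose by 0.68 and 0.71, and with 75th percentile scaling its call in PH was lost (0.46, adjusted p = 0.0594). The signal of Cox4i2, an isoform known from lung and low oxygen, was between 21.5 and 61.2 on all microarrays. Cox4i2 was not called in any comparison, though with normexp background correction it was called lower in PH than in EH (-0.30, adjusted p = 0.0302).

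The balance within a pair was followed as the log2 difference of both signals on the same microarray, which was not tested. For Cox8b and Cox8a it shifted by 2.13 in PL and 1.94 in PH against E15.5. Cox6a2 minus Cox6a1 shifted by 1.96 in PL and 0.76 in PH, and was already 1.03 higher in EH than in EL. Cox7a1 minus Cox7a2 shifted by 0.62 and 0.47. In each of these pairs the 8 P2 microarrays lay above the 8 E15.5 microarrays. The balance of Atp5g1 and Atp5g3 moved by at most 0.09 in either direction, less than the pooled SD of 0.109.

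**Figure D3:**
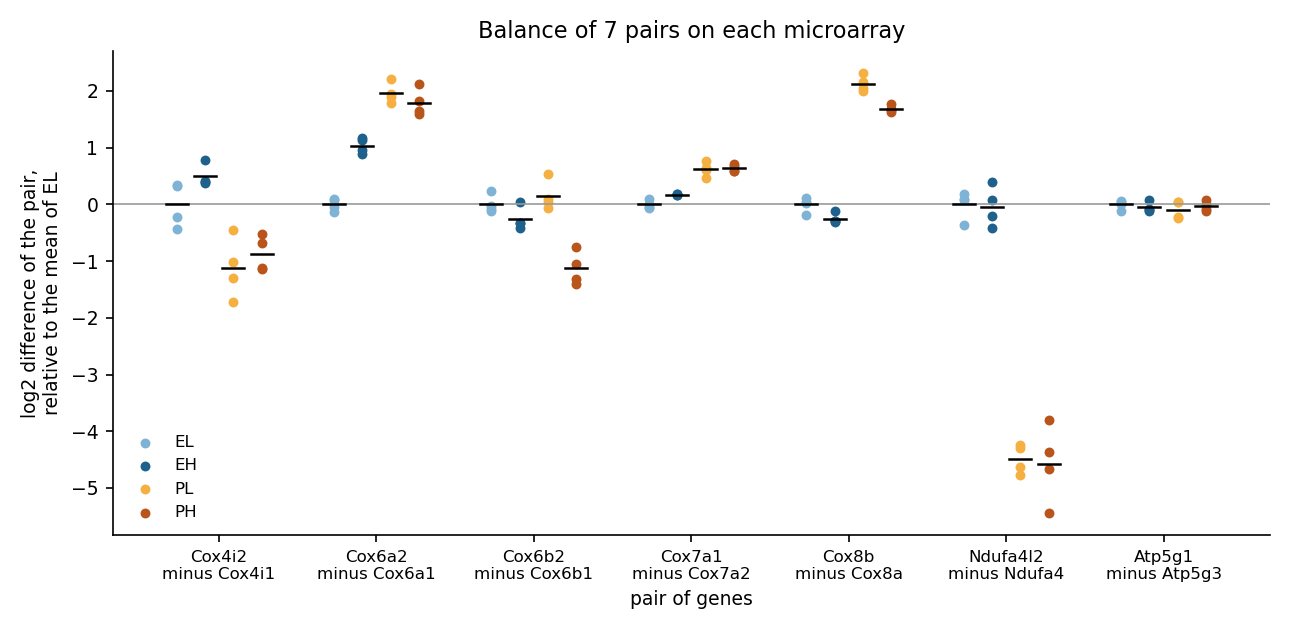
Log2 difference between both genes of 7 pairs on each microarray (vertical axis), relative to the mean of EL, with 1 point per microarray and a bar at the mean of each group. The differences of Cox6a2, Cox7a1 and Cox8b with their counterparts lie above 0 at P2, those of Ndufa4l2 and Cox4i2 lie below 0, and Atp5g1 minus Atp5g3 stays near 0.

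Promoters are shown for Cox8b and Cox7a1 with their counterparts, the pairs of a muscle isoform for which RefSeq (GRCm38.p6) gave the sequence of both genes, from 250 bases before to 50 bases after the start, 5′ to 3′ on the strand of the gene. Capitals mark matches to any of 6 motifs on either strand: AAGGTCA of estrogen-related receptors, the NRF-1 palindrome, CCGGAAG of ETS factors, GGGCGG of SP1, the MEF2 box and the E-box CAGCTG. The Cox8b promoter (chr7:140900397-140900696, minus strand) held the E-box at 2 places, and that of Cox8a (chr19:7217567-7217866, minus strand) the ETS motif at 2 places.
Cox8b: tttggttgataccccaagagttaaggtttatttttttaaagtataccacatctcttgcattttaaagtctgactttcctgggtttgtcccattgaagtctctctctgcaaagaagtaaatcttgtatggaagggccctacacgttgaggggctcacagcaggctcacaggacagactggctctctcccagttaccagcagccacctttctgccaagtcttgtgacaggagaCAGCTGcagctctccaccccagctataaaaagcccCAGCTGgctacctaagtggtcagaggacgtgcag
Cox8a: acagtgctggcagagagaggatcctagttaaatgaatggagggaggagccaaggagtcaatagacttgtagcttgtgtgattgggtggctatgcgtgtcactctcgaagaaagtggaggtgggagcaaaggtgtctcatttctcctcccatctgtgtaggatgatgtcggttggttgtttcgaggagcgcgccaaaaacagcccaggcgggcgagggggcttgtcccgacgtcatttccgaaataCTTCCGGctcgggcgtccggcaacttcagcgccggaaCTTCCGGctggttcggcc
The Cox7a1 promoter (chr7:30183921-30184220, plus strand) held 0 matches and that of Cox7a2 (chr9:79759804-79760103, minus strand) 1 match to the SP1 motif.
Cox7a1: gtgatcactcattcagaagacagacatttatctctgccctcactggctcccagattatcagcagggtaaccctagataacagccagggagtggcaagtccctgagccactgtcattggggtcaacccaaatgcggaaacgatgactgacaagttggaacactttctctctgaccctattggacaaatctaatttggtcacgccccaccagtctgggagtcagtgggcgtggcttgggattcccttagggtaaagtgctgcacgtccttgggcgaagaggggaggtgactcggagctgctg
Cox7a2: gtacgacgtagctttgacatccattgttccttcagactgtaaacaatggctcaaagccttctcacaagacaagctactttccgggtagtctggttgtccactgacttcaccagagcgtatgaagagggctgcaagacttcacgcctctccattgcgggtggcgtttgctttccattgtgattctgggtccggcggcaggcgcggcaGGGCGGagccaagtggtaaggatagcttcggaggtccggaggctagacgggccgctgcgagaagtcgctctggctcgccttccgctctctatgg

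Of the 93 genes, 76 had a promoter in the table, beside 27025 genes in all. NRF-1 is a known regulator of respiratory chain genes, and its motif was found for 19 of the 76 genes, 25% against 5.19% of all genes. The ETS motif, which GABP (also called NRF-2) binds, was found for 17 (22.4% against 9.93%), the SP1 motif for 34 (44.7% against 38.2%) and the motif of estrogen-related receptors for 8 (10.5% against 5.38%). The MEF2 motif and the E-box were found for 2 and 6 genes (2.63% against 4.23% and 7.89% against 18.3%). These shares are descriptions of letters in a window and were not tested. Sdhd, a membrane anchor of complex II, had matches to 4 motifs, the most of the 76 genes, which were NRF-1, ETS, SP1 and estrogen-related receptors in the order of the sequence (chr9:50603800-50604099, minus strand).
Sdhd: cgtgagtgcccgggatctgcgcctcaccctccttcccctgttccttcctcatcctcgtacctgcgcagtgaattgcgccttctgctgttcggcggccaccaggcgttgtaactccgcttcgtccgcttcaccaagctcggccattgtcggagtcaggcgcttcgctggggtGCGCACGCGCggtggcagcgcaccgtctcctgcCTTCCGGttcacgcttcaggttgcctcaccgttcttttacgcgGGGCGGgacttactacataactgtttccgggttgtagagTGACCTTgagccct

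The few genes that fell at P2 included Ndufa4l2, a paralog of Ndufa4 that is known as a target of the hypoxia factor HIF-1. Its signals were 200, 197, 147 and 207 in EL and 183, 140, 227 and 148 in EH, and lay between 7.19 and 18.2 on all 8 P2 microarrays, none of them well above background. It was at least 9.58-fold lower in PL (adjusted p = 2.11e-07) and at least 10.8-fold lower in PH (adjusted p = 2.17e-07), where the bound sets P2 values to the lowest signal well above background of each microarray. Ndufa4, counted here with complex I by its name, rose by 0.75 and 0.59, and with 75th percentile scaling its call in PH was lost (0.42, adjusted p = 0.0909). Atp5c1, the γ subunit of the ATP synthase, was called lower by its brighter probe, by 0.55 in PL and 1.01 in PH, but its other probe had log2 fold-changes of 0.90 and 0.84 (adjusted p = 0.159 and 0.202). The dimmer probe of Atp5g1 had log2 fold-changes of 0.01 in PL and -0.56 in PH, neither called. Probes also opposed each other for Ndufab1 and Ndufv3. The brighter probe of Ndufv3 rose by 0.80 and 0.79, and a dimmer one fell by 0.98 and 0.83. For Ndufab1 these values were 0.74 and 0.49 against -0.24 and -0.30. With 75th percentile scaling both calls of the brighter Ndufv3 probe were lost (0.60 and 0.53, adjusted p = 0.0515 and 0.094). The same held for the brighter Ndufab1 probe in PH (0.28, adjusted p = 0.187).

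Stage, slide and isolation could not be told apart, since all P2 microarrays lay on 1 slide and P2 cells were isolated in another way. Markers of other cells differed between the stages. All 6 fibroblast markers were called lower in PL and in PH, and their summed signal was 12745 to 22180 in EL, 5360 to 10335 in EH, 439 to 1518 in PL and 536 to 791 in PH, with Col1a2 the most abundant in each group. Of the 4 epicardial markers all were called lower in both, from sums of 1430 to 2333 in EL and 399 to 1768 in EH to 36 to 147 in PL and 74.1 to 155 in PH. Of 5 erythroid markers 3 were called lower in both, from sums of 3673 to 30440 in EL and 5407 to 34113 in EH to 386 to 893 in PL and 340 to 446 in PH. Of 6 endothelial markers 0 were called in PL against EL and 4 were called lower in PH against EH (Cdh5, Emcn, Tek and Tie1 were not well above background in PH), and of 5 leukocyte markers 1 and 5 were called lower (Fcer1g, Lyz2 and Ptprc were not well above background in PH). Smooth muscle and pericyte markers were mixed, with 1 of 6 called higher and 3 lower in PL, 1 higher and 4 lower in PH, and Acta2 the most abundant. Pdgfra, Wt1 and Upk3b were not well above background in PL, nor Pdgfra and Upk3b in PH. The same held for the smooth muscle and pericyte markers Myh11, Pdgfrb and Rgs5 in both PL and PH. Of 7 cardiomyocyte markers, 5 were called higher in PL and 3 in PH (median log2 fold-change 0.74 and 0.23). The part of these changes in the rise of the respiratory chain genes was not tested.

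Between the fractions, nearly all calls among the respiratory chain genes were toward lower signals in the ITGA6-high cells, while many genes did not pass the test. At E15.5, 37 genes were called lower and 1 higher in EH compared with EL, against 3.83% and 4.27% of all probes. At P2, 51 genes were called lower and 0 higher in PH compared with PL, against 5.41% and 6.15%. The median log2 fold-change was -0.21 at E15.5 and -0.32 at P2, against -0.06 and -0.03 for the 17202 probes that passed this detection mark everywhere, of which 9.06% were called higher and 9.7% lower in EH, and 13.5% and 13.2% in PH. With 75th percentile scaling the median of the genes was -0.50 and -0.63, and that of these probes was -0.14 and -0.08. The fraction comparisons share no samples. Both come from the same fit and use the same estimate of spread per probe, so that their calls are not independent. In all, 31 genes were called lower in both, which is 83.8% of those lower in EH and 60.8% of those lower in PH. The share of all probes called lower in both was not computed. Few changes in any comparison reached 3-fold. In EH against EL, 0 genes were at least 3-fold higher or lower (1.17% and 0.454% of all probes), and in PH against PL 0 were higher and 1 lower (1.73% and 0.916%). In PL against EL 1 was higher and 1 lower (1.6% and 2.15%), as in PH against EH (1.3% and 2.1%).

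In complex II, Sdha had signals of 9639, 8884, 9950 and 9771 in EL against 5337, 5324, 5252 and 5973 in EH. At P2 they were 21297, 21233, 14179 and 16391 in PL against 8226, 8017, 9204 and 9072 in PH. No samples overlapped, and the log2 fold-changes were -0.81 ± 0.116 (adjusted p = 0.000474) and -1.06 ± 0.116 (adjusted p = 2.22e-05). Sdhd, whose promoter is shown above, was lower by 0.61 and 0.82 on the log2 scale, and its interaction of -0.21 was not called (adjusted p = 0.551). Of the 4 complex II genes, 3 were called lower in EH and all 4 in PH.

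In complex I, 14 of 44 genes were called lower in EH and 26 in PH. Ndufs6, an accessory subunit, had signals of 67815, 63049, 69403 and 75181 in EL and of 42729, 44717, 43755 and 43887 in EH. At P2 it had 98350, 101540, 105408 and 113403 in PL and 59503, 61551, 65662 and 69026 in PH. The groups were separate at both stages, with log2 fold-changes of -0.65 ± 0.0686 (adjusted p = 3.27e-05) and -0.71 ± 0.0686 (adjusted p = 7.1e-06). Ndufa8 was lower by 0.63 and 0.83 on the log2 scale. The assembly factors Ndufaf4 and Ndufaf6 had log2 fold-changes of -0.90 and -0.84 in EH and of -0.78 and -0.81 in PH, all called, while 4 of the 7 assembly factors were not called at either stage.

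**Figure D4:**
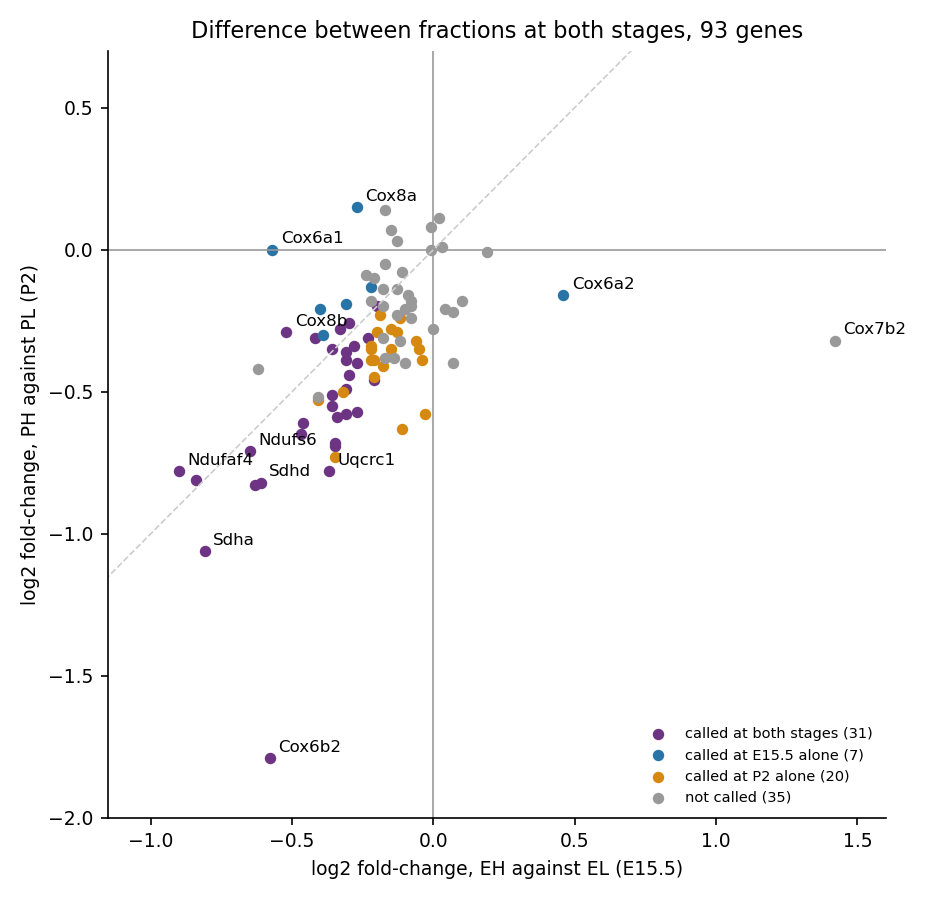
Log2 fold-change of each of the 93 genes between ITGA6-high and ITGA6-low cells at E15.5 (horizontal axis) and at P2 (vertical axis), with 1 point per gene, colored by the comparisons in which it was called, and a dashed line where both values are equal. Most points lie in the lower left, 31 genes are called lower at both stages, Cox6a2 lies to the right at 0.46, Cox6b2 lies lowest at -1.79, and Cox7b2 at the far right was not called and was well above background on 1 microarray.

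In complex III, 4 of 8 genes were called lower in EH and 6 in PH. Uqcrc1 was at 9438 ± 546 in EL and 7295 ± 463 in EH, and at 19008 ± 1256 in PL and 11105 ± 799 in PH, log2 fold-changes of -0.37 (adjusted p = 0.00562) and -0.78 (adjusted p = 6.81e-06). Uqcrfs1 was called at P2 with -0.73 and had -0.35 at E15.5 (adjusted p = 0.0547). Of 15 ATP synthase genes, 7 were called lower in EH and 8 in PH. Atp5g3 was lower in EH (47240 ± 1917) than in EL (57259 ± 2374), by 0.28 on the log2 scale (adjusted p = 0.0138), and this call was lost with the sample number as a replicate block (adjusted p = 0.066). At P2 it was lower by 0.34 on the log2 scale.

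In complex IV, 9 of 17 genes were called lower in EH and 6 in PH. Cox8b was lower by 0.52 on the log2 scale in EH (adjusted p = 0.00137) and by 0.29 in PH (adjusted p = 0.0415). The second of these calls was lost when any of 9 single microarrays was left out, with adjusted p up to 0.119. Cox7a1 had log2 fold-changes of -0.22 (adjusted p = 0.151) and -0.18 (adjusted p = 0.237), and with normexp background correction it was called lower in both (-0.29 and -0.25, adjusted p = 0.0255 and 0.0331).

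Cox6b2, an isoform best known from testis, showed the largest called difference between fractions. At E15.5 its signals were 645, 629, 691 and 611 in EL, against 413, 456, 438 and 420 in EH. At P2 they were 826, 909, 1052 and 1156 in PL, against 288, 289, 245 and 316 in PH. The 4 groups did not overlap, and the order from high to low was PL, EL, EH and PH. The log2 fold-change was -0.58 ± 0.102 at E15.5 (adjusted p = 0.0024) and -1.79 ± 0.102 at P2 (3.45-fold lower, adjusted p = 5.27e-08). With stage it rose in PL by 0.60 (adjusted p = 0.000632) and fell in PH by 0.61 (adjusted p = 0.000728).

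Whether the fraction difference changed with stage was tested by the interaction. Of the 93 genes 2 were called positive and 2 negative, against 1.81% and 1.35% of all probes and 3.99% and 2.87% of those well above background on all microarrays, and the median was -0.13. The share called was 2.15% in each direction, near those of all probes. All 4 are complex IV genes, and whether the calls gather in that complex was not tested. Cox6b2 (-1.21 ± 0.145, adjusted p = 0.000333) and Cox6a2 (-0.62) had a more negative difference at P2, and Cox6a1 (0.58 ± 0.138, adjusted p = 0.038) and Cox8a (0.42 ± 0.0843, adjusted p = 0.0143) a difference shifted upward, from -0.57 to 0.00 and from -0.27 to 0.15. The call of Cox6a1 was lost when any of 13 of the 16 microarrays was left out, with interactions of 0.52 to 0.59 and adjusted p between 0.0575 and 0.0826. Cox6b2 was still called with 75th percentile scaling and with the E15.5 samples of slide 1 alone, whereas the other 3 were not. With that scaling the interaction was 0.23 for Cox6a1 (adjusted p = 0.908), 0.32 for Cox8a (adjusted p = 0.83) and -0.81 for Cox6a2 (adjusted p = 0.0966), and on slide 1 it was 0.62, 0.37 and -0.57 (adjusted p = 0.127, 0.123 and 0.133). Ndufa10 and Ndufa9 had interactions of -0.54 and -0.52 that were not called (adjusted p = 0.199 and 0.0533).

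The E15.5 microarrays lay on 2 slides. On slide 1 alone (2 EL and 3 EH) 11 genes were called lower in EH and the median log2 fold-change was -0.22, and on slide 3 alone (2 EL and 1 EH) 4 genes were called with a median of -0.25. The latter rests on a single EH sample, which was assumed to vary like the other groups. Markers of other cells also differed between EL and EH. Of 6 endothelial markers, 4 were called higher in EH (Pecam1, Cdh5, Emcn and Tie1), while their summed signal was 1024 to 1174 in EL and 788 to 1920 in EH and rested mostly on Kdr. Cdh5, Emcn, Tek and Tie1 were not well above background in EL, PL or PH. Of 5 leukocyte markers, 2 were called higher in EH, with sums of 626, 494, 1906 and 552 in EL and of 1197, 965, 8282 and 1736 in EH and with Csf1r the most abundant. Ptprc and Lyz2 were not well above background in EL, PL or PH. At P2, 0 of 6 endothelial and 0 of 5 leukocyte markers were called between fractions. Of 6 fibroblast markers 0 were called between fractions at either stage, but their sums, given above, did not overlap between EL and EH and were lower in EH. Of 6 smooth muscle and pericyte markers 2 were called higher and 1 lower in EH, and 0 and 2 in PH. Their sum was 45424 to 48637 in EL, 24272 to 31999 in EH, 22776 to 45445 in PL and 7875 to 10533 in PH. It rested mostly on Acta2 in EL, EH and PL, whose mean was 42483, 24291 and 28868 there and 4134 in PH. Myh11 was not well above background in any group, Rgs5 not in EL, PL or PH, and Pdgfrb not in PL or PH. Of 4 epicardial markers 1 was called lower in EH and 1 higher in PH, and of 5 erythroid markers 1 was higher in each. The part of these markers, and of the chamber markers above, in the fraction difference was not tested.

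The sizes were compared with those of bright probes. This set was taken from all probes and includes bright probes of the respiratory chain genes themselves. Among the 1294 probes with a mean log2 value of at least 13 that were well above background on all microarrays, the median log2 fold-change was -0.003 in EH against EL, 0.04 in PH against PL and -0.12 in both stage comparisons. Of these bright probes, 5.18% were called higher and 9.51% lower in EH, 18.5% and 16.7% in PH against PL, 28.1% and 38.8% in PL against EL, 26.7% and 36.2% in PH against EH, and 5.1% and 2.94% for the interaction. With 75th percentile scaling the median of the bright probes was -0.29, -0.23, -0.29 and -0.27 in EH against EL, PH against PL, PL against EL and PH against EH, and that of the respiratory chain genes -0.50, -0.63, 0.58 and 0.38. With both scalings the median of the genes was below that of the bright probes in the fraction comparisons and above it in the stage comparisons.

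Genes of adjoining pathways were taken from fixed lists. Their counts stand beside 23.4% of detected probes called higher and 23% lower in PL against EL, 21.5% and 18.5% in PH against EH, 9.06% and 9.7% in EH against EL, and 13.5% and 13.2% in PH against PL. Cytochrome c itself (Cycs) and Cyc1, a cytochrome of complex III, rose by 1.06 and 1.12 in PL and by 0.75 and 0.92 in PH. Of 13 genes encoded in mitochondrial DNA, 11 were called higher and 1 lower in PL, and 10 and 0 in PH. ND1 and ND5, subunits of complex I, rose by 2.13 and 2.20 in PL, while ND6, the protein gene on the other strand of mitochondrial DNA, fell from 1241 to 1549 in EL to 71.1, 109, 336 and 647 in PL (log2 fold-change -2.75, adjusted p = 0.00227). In EH against EL, 1 of these 13 genes was called higher (CYTB, 0.30) and 0 lower, and in PH against PL 0 higher and 8 lower. How this differs from the 93 nuclear genes was not tested.

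Fatty acid uptake and beta-oxidation, a main fuel pathway of the heart after birth, was represented by 24 genes. All 24 genes measured were called higher in PL and in PH (median log2 fold-change 1.64 and 0.86). Ucp3, a mitochondrial carrier, rose by 3.40 in PL, Decr1 by 2.45, the acylcarnitine carrier Slc25a20 by 2.32 and the fatty acid transporter Cd36 by 2.30. Between fractions 8 were called lower and 2 higher in EH, and 23 lower and 0 higher in PH, with Eci1 at -1.47, Hadhb at -1.30, Acadm at -1.25 and Acsl1 at -1.20 in PH. For 14 of these 24 genes the interaction was called negative and for 1 positive (2.87% and 3.99% of detected probes).

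Of 21 genes of the tricarboxylic acid cycle and pyruvate dehydrogenase, 19 were called higher and 0 lower in PL, and 18 and 1 in PH. Pdk4, a kinase that inhibits pyruvate dehydrogenase, rose by 1.71 in PL, Idh3b by 1.45, Pdha1 by 1.42 and the pyruvate carrier gene Mpc1 by 1.39. In EH 0 were called higher and 4 lower, and in PH 0 higher and 15 lower. Of 34 further assembly factors, 21 were called higher and 1 lower in PL but 9 and 0 in PH, with Cox10 at 1.10, Ttc19 at 0.99, Coa5 at 0.88 and Lyrm7 at -0.87 in PL. In the fractions 1 was called higher and 9 lower in EH, and 0 and 16 in PH, where Higd1a was at -0.87 and Ttc19 at -0.80.

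Of 21 glycolysis genes, 5 were called higher and 9 lower in PL, and 6 and 9 in PH, near the shares of the bright probes (28.1% and 38.8% in PL, 26.7% and 36.2% in PH). The glucose transporter gene Slc2a1 fell by 2.45 in PL, Eno2 by 2.03 and Pgam1 by 1.91, whereas the muscle enolase gene Eno3 rose by 1.48. Between fractions, 2 were called higher and 8 lower in EH, and 3 and 7 in PH.

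**Figure D5:**
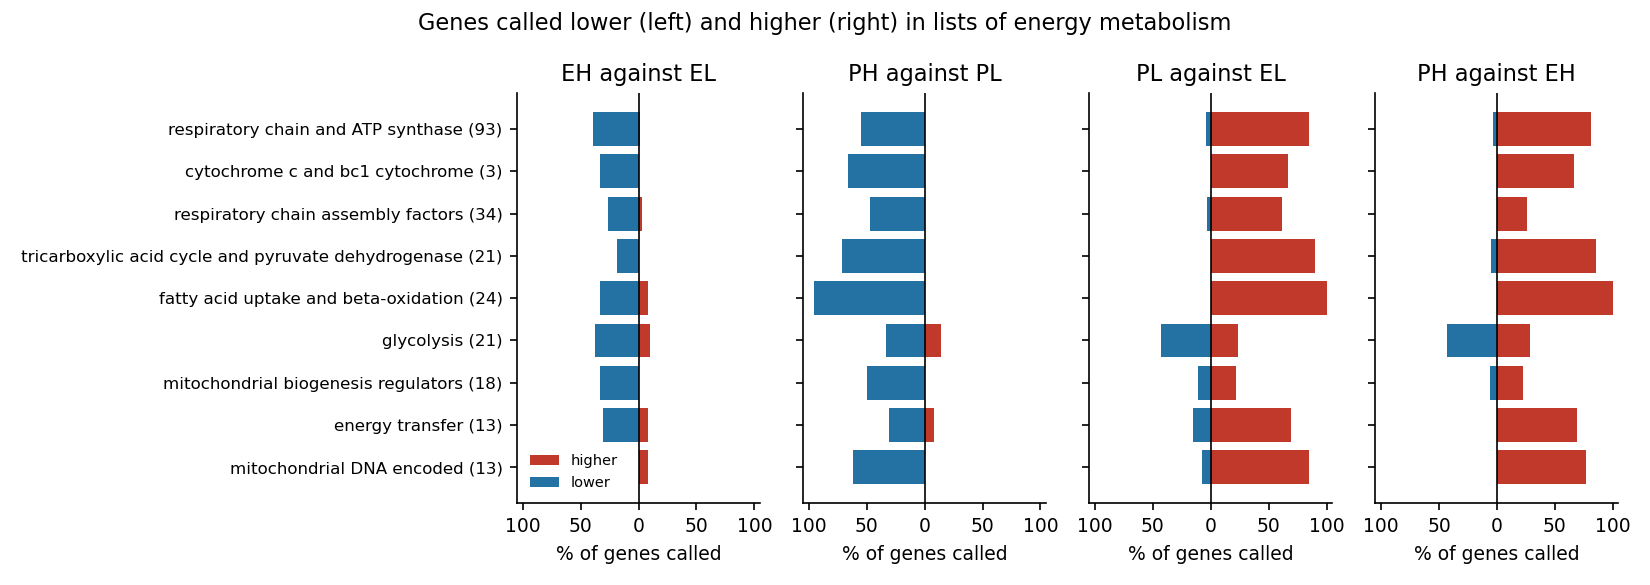
Percentage of genes (horizontal axis) called lower (to the left) and higher (to the right) in the 4 comparisons, for the 93 respiratory chain and ATP synthase genes and for 8 lists of energy metabolism, with the number of measured genes in parentheses. The bars for fatty acid genes reach 24 of 24 higher in PL and PH, and those for glycolysis extend to both sides.

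Of 13 genes of energy transfer, 9 were called higher and 2 lower in PL, and 9 and 0 in PH. Between fractions 1 was called higher and 4 lower in EH, and 1 and 4 in PH, with 8 not called in each comparison. Ckmt2, the creatine kinase of muscle mitochondria, rose from 480, 456, 586 and 552 in EL to 8582, 8918, 8493 and 6419 in PL (log2 fold-change 3.96 ± 0.135, adjusted p = 1.04e-09) and by 2.29 in PH. Mb, which encodes myoglobin, was at 20072 in EL and 1990 in EH, and at 99681 in PL and 41905 in PH. It rose by 2.31 in PL and 4.39 in PH and was lower by 3.35 in EH and 1.28 in PH on the log2 scale.

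Of 18 genes for regulators of mitochondrial biogenesis, 4 were called higher and 2 lower in PL, and 4 and 1 in PH. Ppargc1b, a coactivator of nuclear receptors, rose by 1.61 in PL, Esrra by 0.68 and Ppara by 0.64, and Nrf1 fell by 0.59. Ppargc1a had signals around 4236 in EL and 4253 in PL (log2 fold-change 0.00). Between fractions 0 were called higher and 6 lower in EH, and 0 and 9 in PH. Ppargc1a was lower by 0.70 in EH and 0.63 in PH, Esrrb by 0.69 and 0.65, and Ppara by 0.72 and 0.52 on the log2 scale. Ppargc1b had signals of 27.5, 41.6, 37.2 and 34.6 in EL and was not well above background in EH, so that it was at least 2.47-fold lower there, and in PH it was lower by 2.05 on the log2 scale.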

How the data were processed

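Total RNA (10 ng per sample) of sorted CMs was measured on 16 single-color Agilent arrays. Per the file headers, spot intensities were extracted with Feature Extraction 10.7.3.1, and gProcessedSignal is the background-corrected intensity. The authors quantile normalized these values and deposited a table of log2 values, which was used to choose 1 probe per gene (the brightest on average) and as an alternative. Flags for spots well above background and for outliers were used as deposited. Control and outlier spots were left out, spots of a probe were averaged, and 55681 probes were quantile normalized and log2 transformed. limma 3.58.1 (R 4.3.3) fitted a mean per group over all 16 arrays with empirical Bayes moderation, and p-values were adjusted over all probes by the Benjamini-Hochberg method. This differs from the ANOVA with Tukey test and 3-fold limit of the study's methods, which was run as an alternative. The number of arrays limits the precision. Pools were separate experiments. Samples of the same number paired at E15.5 (correlation of deviations from the group mean 0.215 to 0.547 in 4 pairs) but not throughout at P2 (-0.0651 to 0.718). Genes, lists and tests were chosen with earlier results of these data known. Genes named were both members of each isoform pair, up to 8 called genes with the largest change per direction and comparison, the 3 most extreme interactions each way, genes with opposing probes, and up to 4 genes per further list. Alternatives were other scaling, background correction, probes, filters, tests, slide, replicate block and leaving out each sample.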

Additional observations from a re-analysis of the deposited data

Results flagged for a closer look

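In 13 of 140 groups of 4 samples, over 35 named genes, the highest or lowest sample stood apart from the others by more than Dixon's 95% limit, as the share of the range of the group. Chance flags about 1 in 20 groups. In EL these were sample 3 of Cox8b (lowest, 17293), sample 6 of Ndufa4l2 (lowest, 147) and sample 8 of Atp5s (lowest, 56). In EH they were sample 3 of Cox4i2 (highest, 61.2), sample 8 of Cox6b1 (lowest, 5610) and sample 8 of Sdha (highest, 5973). PL held sample 2 of Cox8c (highest, 12.9, not well above background), sample 3 of Ndufb10 (lowest, 69026) and sample 5 of Atp5c1 (highest, 1699). PH held sample 3 of Atp5g3 (lowest, 68368), sample 3 of Ndufb10 (lowest, 45685), sample 4 of Cox8c (highest, 7.45, not well above background) and sample 5 of Ndufa4 (highest, 27891).

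For 4 complex IV genes the interaction in limma was called. These are 2.15% of the 93 genes in each direction, against 1.81% of all probes called positive and 1.35% negative. The interaction was 0.58 for Cox6a1, -0.62 for Cox6a2, -1.21 for Cox6b2 and 0.42 for Cox8a on the log2 scale. With 75th percentile scaling the calls of Cox6a1, Cox6a2 and Cox8a were lost (adjusted p = 0.908, 0.0966 and 0.83). That of Cox6a1 was also lost when any of 13 microarrays was left out.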

How the results depend on the processing

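The sign of the median fold-change of the 93 genes was kept in each of the 4 comparisons under all alternatives. Shares of all probes called were computed for the main processing only, so that counts under alternatives have no such share beside them. With 75th percentile scaling, under which the median of all probes was -0.18, -0.14, 0.19 and 0.19 in EH against EL, PH against PL, PL against EL and PH against EH, the median of the genes was -0.5, -0.63, 0.58 and 0.38, and 29 genes were called higher in PH than in EH. Under this scaling the interaction was called for 0 genes upward and 1 downward, the calls of Atp5g1, Cox4i1, Ndufa4 and Ndufab1 in PH against EH, of Cox6b1 in PL against EL and of Ndufv3 in both were lost (adjusted p = 0.0725, 0.0594, 0.0909, 0.187, 0.123, 0.094 in PH and 0.0515 in PL), and of the other energy lists 1 gene each was called higher in EH and in PH. Also under it, the isoform balance of Cox7a1 and Cox7a2 in PH against PL turned to -0.08, that of Cox4i2 and Cox4i1 was 0.78, that of Cox8b and Cox8a was -0.32 there and 2.01 in PL against EL, and that of Cox6a2 and Cox6a1 was 1.71 in PL against EL. With normexp 5 interactions were called downward, and the balance of Ndufa4l2 and Ndufa4, where Ndufa4l2 was not well above background at P2, shifted by -2.39 in PL and -2.18 in PH instead of -4.49 and -4.53, and when only detected probes were tested 4 were called downward. With the methods' test, as with a limit of at least 3-fold, 0 genes were called higher and 0 lower in EH against EL, 1 lower in PH against PL, and 1 higher and 1 lower in each stage comparison. The interaction had 0 calls at 3-fold in either direction. With the E15.5 samples of slide 1 only, chosen after seeing the data, 0 genes were called higher and 11 lower in EH, and with those of slide 3 only, where EH is 1 sample assumed to vary like the other groups, 0 and 4. In both, 0 interactions were called upward and 1 downward. With the median over the probes of a gene, Atp5c1 in PL turned to 0.18, and Ndufv3 to -0.98 in PL and -0.83 in PH. The calls of Atp5g1 in EH, in PH against PL and in PH against EH (-0.06, -0.31 and 0.08) and of Atp5c1 and Ndufab1 in PH against EH (-0.09 and 0.09) were lost. With only the 2 groups compared in the fit, Cox7a1 was called lower in EH (adjusted p = 0.0247), and the calls of Atp5g1, Cox4i1 and Cox8b in PH against PL, of Cox6b1 in PL and of Atp5s in PH against EH were lost (0.12, 0.0683, 0.122, 0.0628 and 0.0947). Ndufa4 was called lower in PH against PL when only detected probes were tested (0.0382) and without PH sample 5 (-0.32, 0.00295). The cause of these changes was not tested.

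Leaving out 1 sample at a time gave 1 to 2 genes higher and 28 to 41 lower in EH against EL, 0 higher and 46 to 54 lower in PH against PL, 75 to 81 higher and 4 lower in PL against EL, 72 to 76 higher and 3 lower in PH against EH, and 1 to 2 interactions upward and 2 to 5 downward. The medians ranged from -0.23 to -0.2, -0.35 to -0.29, 0.64 to 0.7 and 0.51 to 0.57 in the same order, and from -0.15 to -0.1 for the interaction. Single samples ended the calls of Cox6b1 in PH against PL and PL against EL (5 samples each, adjusted p up to 0.0972 and 0.113), of Cox7a2 in EH (4 samples, up to 0.0646), of Atp5g1 in PH against PL (4 samples, up to 0.0696) and of Atp5s in PH against EH (PH sample 4, 0.0535). With the sample number as a replicate block, 37 genes were called lower in EH and 60 in PH. The block ended the calls of Atp5g3 in EH (0.0657) and Cox8b in PH (0.0509), brought in Cox6b1 in EH (0.0198) and Ndufa4 in PH (0.031), and changed none of the other 98 of 102 gene results.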
